A study of Mus musculus with 10 samples.

Results

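The untreated tumour of this series was the negative control group, 2 of the 10 libraries that were made from subcutaneous 4T1 tumours on day 14. Its members were chosen by their label alone, and no treated library was used to define it. PBS is named for it in the series design, and the labels give 4 treated groups of 2 libraries each: Free-MK1775, Free-MK1775+NLG919, Lipo-MK1775 and Lipo-MK1775+NLG. The drug MK1775 blocks WEE1, a kinase that restrains entry into mitosis, and NLG919 acts on the IDO1 pathway of tryptophan breakdown. All 5 groups carry the same tumour line at the same site, so no normal tissue and no 4T1 culture served as a reference. Strain, sex and age of the mice, doses, the make-up of the Lipo form, and whether libraries of a group came from separate or pooled mice are not given in the labels or the design text. The p-values below therefore measure only the spread between these samples, which may be technical.

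4T1 is a transplantable mammary carcinoma line from a BALB/c mouse that grows without hormones, spreads to lung and other organs, and draws large numbers of myeloid cells. A tumour grown under the skin contains carcinoma cells, host fibroblasts and vessels, and leukocytes, and its edge lies against skin, fat and the thin muscle of the body wall. RNA from the whole piece is read together, so a level reflects both how many cells of a type were present and how much of the RNA each cell made. Fewer cells of a type and less RNA per cell cannot be told apart in such data.

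Expression is given as FPKM, the fragments read from a transcript divided by its length and by the library total, summed over the transcripts that carry a gene's symbol. Every pair of values gives negative control replicate 1 and then replicate 2. Some reads lie in transcripts assembled by the authors' pipeline that carry no symbol, and these held 14.2% and 13.3% of the summed FPKM of the 2 libraries. Where adding them to the gene they overlap moves a printed pair of levels by more than 1.5 times in either library, the pair "with unnamed transcripts" is printed as well. Between the 2 libraries, 2-fold means 1 unit of log2(FPKM + 1), which asks for more than a doubling of FPKM, and is counted for genes of mean FPKM at least 1. Of all 11545 such genes, 5221 were higher in replicate 1 and 6324 in replicate 2. After rescaling to nuclear genes the counts were 6536 and 5009. Counts below of list members higher in a replicate are to be read against these shares, and they also include members of lower mean. Relative depth was 1.95 and 1.56 times that of the shallowest library of the series. Transcripts of the mitochondrial genome took 4.79% and 3.70% of summed FPKM, as in 5 treated libraries at 2.88% to 4.82%. The other 3 treated libraries were Free-MK1775+NLG919 replicate 2 at 47.3%, Lipo-MK1775 replicate 2 at 56.0% and Lipo-MK1775 replicate 1 at 64.1%.

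The untreated tumour had 10882 genes at 1 FPKM or more in both libraries, of which 10292 code for proteins. Of 52324 symbols, 19117 were above 0 in both libraries and 28706 were listed at 0 in both. At the top, 355 genes reached 100 FPKM in both, and 11 nuclear genes reached 1000. The 25 most abundant nuclear genes of any kind held 11.6% of nuclear FPKM, the top 100 held 28.0%, and 496 genes together held 50% of it.

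Among nuclear protein genes whose locus no other symbol shares, the leading gene was B2m, the light chain of MHC class I (chromosome 2, 121978167 to 121983564, GRCm39), at 2447 and 2107 FPKM, a mean of 2277 ± 239.9 (SD, n = 2). Lgals1, which encodes galectin-1, a sugar-binding protein of carcinoma and stromal cells, was at 1722 and 2049 FPKM. Fth1 and Ftl1 encode the heavy and light subunits of ferritin, the iron store of the cell. Fth1 was at 1979 and 1759.8 FPKM and Ftl1 at 1616 and 1566 FPKM, so both ferritin subunits stood among the 5 highest of these genes and differed little between the libraries. The calcium-binding proteins S100a6 (774 and 1074 FPKM) and S100a11 (729 and 679 FPKM) were in the same range. Aldoa, an enzyme of glycolysis, was at 757 and 875 FPKM, and Hsp90ab1, a chaperone, at 757 and 905 FPKM. The cytokine Mif was at 721 and 760.2 FPKM, cytoplasmic actin Actb at 805 and 626 FPKM (1168 and 1009.5 with unnamed transcripts), and Ptma, which encodes prothymosin alpha, at 696 and 709 FPKM. The remaining 14 of the 25 were ribosomal protein genes, led by Rplp1 (1467 and 1818 FPKM), Rps15 (1108 and 1208 FPKM), Rps27 (1100.1 and 1204 FPKM) and Rpl41 (981 and 1196 FPKM). Over all 84 ribosomal protein genes the share of nuclear FPKM was 15.5% and 17.0%, and 74 were higher in replicate 2, or 62 after rescaling to nuclear genes.

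**Figure D1:**
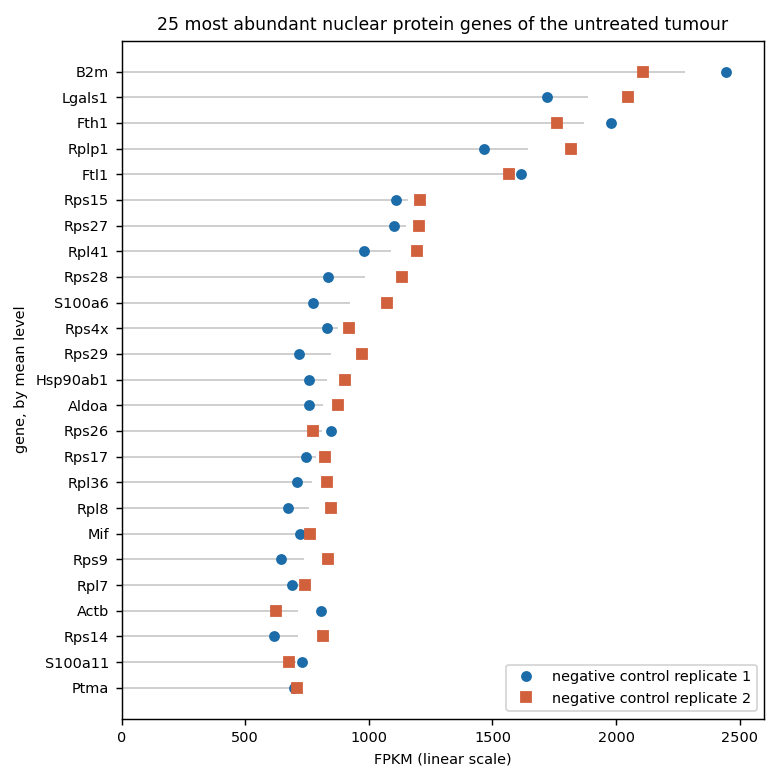
FPKM (horizontal axis, linear from 0) of the 25 most abundant nuclear protein genes that share no locus (vertical axis) in negative control replicate 1 (circles) and replicate 2 (squares); grey lines run to the mean. B2m leads at 2447 and 2107 FPKM, and the 2 points of a gene lie close together along the whole order.

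Several abundant transcripts stand outside that order, and were named after their values had been seen. Eef1a1, an elongation factor of translation, was at 3389.6 and 3364 FPKM and Tpt1 at 1712 and 1923 FPKM, but another symbol shares the locus of each, and how reads were split there is uncertain. The secreted phosphoprotein Spp1 was at 458 and 1178 FPKM and also shares its locus. The ribosomal RNA gene Rn18s was at 1202 and 814 FPKM. Vim, described below, would stand among the 25 once unnamed transcripts are added.

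Sequences upstream of the start site are shown for B2m, the first of the abundant genes above, and for genes of stratified epithelium that were abundant in 1 library and at or near 0 in the other. Each is the 100 bases before the annotated start, 5′ to 3′, from RefSeq on build GRCm38.p6, which is not the build of the expression values. Capitals mark TATAAA, the TATA box consensus, or ATTGG, which is CCAAT on the opposite strand.
B2m: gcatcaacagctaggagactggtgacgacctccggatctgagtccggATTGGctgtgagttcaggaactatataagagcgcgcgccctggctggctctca
Krtdap: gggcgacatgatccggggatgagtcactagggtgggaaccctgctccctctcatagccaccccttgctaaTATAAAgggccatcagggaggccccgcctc
Krt10: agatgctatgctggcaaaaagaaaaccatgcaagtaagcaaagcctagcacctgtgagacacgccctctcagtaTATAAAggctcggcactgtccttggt
Krt14: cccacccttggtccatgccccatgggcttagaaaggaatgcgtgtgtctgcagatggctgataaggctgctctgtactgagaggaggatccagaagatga
Krt5: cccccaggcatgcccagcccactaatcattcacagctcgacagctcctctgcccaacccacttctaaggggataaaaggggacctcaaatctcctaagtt
In B2m (chr2:122147587-122147686, plus strand) ATTGG begins 53 bases before the start. In Krtdap (chr7:30787805-30787904, plus strand) TATAAA begins 30 bases and in Krt10 (chr11:99389365-99389464, minus strand) 26 bases before the start. The windows printed for Krt14 (chr11:100206031-100206130, minus strand) and Krt5 (chr15:101712906-101713005, minus strand) hold neither run of letters. However, the Krt10 and Krt14 windows lie closer together than the ends of these genes in the expression build (99280190 and 100098374, GRCm39). The Krt14 window may thus lie inside the gene, and its letters say nothing of a start further upstream.

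Promoters of abundant and of silent genes differed in these letters, searched on both strands over 250 bases before to 50 after the start. GGGCGG, the core of a GC box, was in 63.4% of 101 promoters of the 100 most abundant nuclear genes, of which 76 matched the table, and in 64.4% of promoters of genes at 1 FPKM or more in both libraries. It was in 15.3% of promoters of genes listed at 0 in both, of which 7448 of 28706 matched the table, against 35.7% of all promoters. TATAAA was in 15.8%, 7.0% and 20.5% of the same 3 groups and in 13.6% of all promoters. CCAAT was in 32.7%, 37.7% and 39.1%, near the 37.4% of all promoters. Among 13 promoters of 11 epidermal differentiation genes, 6 (46.2%) held TATAAA and 0 held GGGCGG. A high TATAAA share was not particular to them. Among 35 promoters of 31 genes in the hepatocyte, kidney and pancreas lists, 34.3% held TATAAA and 22.9% GGGCGG. These are shares of letters, with no test.

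Simple epithelial keratins were high in both libraries. Krt18 and Krt8 are the paired keratins of simple epithelia. Krt18 was at 227 and 358 FPKM and Krt8 at 166 and 241 FPKM, both higher in replicate 2. The protease inhibitors of epithelial surfaces Spint2 (114 and 154 FPKM) and Spint1 (24.1 and 28.8 FPKM) and the tight junction protein Cldn3 (11.6 and 17.8 FPKM) were also present. Lcn2, a siderophore-binding protein made by carcinoma cells and by neutrophils, was at 112 and 108 FPKM. Of the 18 epithelial genes listed, 11 reached 1 FPKM in both libraries and Cldn7, a claudin, lay under 0.1 in both (0.0505 and 0 FPKM). Genes of the list were also seen mainly in replicate 1 and are named for that reason: Epcam, an adhesion molecule of epithelia, at 3.82 and 0.433 FPKM, and the epithelial splicing factor Esrp1 at 1.55 and 0 FPKM. The epidermal genes described below were also near 0 in replicate 2, and their part in these differences was not tested.

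Basal keratins were read in replicate 1 and hardly at all in replicate 2. Krt14 and its partner Krt5, keratins of basal cells, were at 140.4 and 0 FPKM and at 72 and 0 FPKM. Krt17 and Krt6a, keratins of activated stratified epithelium, were at 51.3 and 0.0945 FPKM and at 45.8 and 0.0316 FPKM. By contrast Itga6, an integrin of basal cells and of many carcinomas, was at 23.6 and 19.4 FPKM (42.1 and 32.7 with unnamed transcripts). Its partner Itgb4 was at 2.94 and 14.5 FPKM, which became 22.6 and 26.1 FPKM with unnamed transcripts. In all, 4 of the 12 basal genes reached 1 FPKM in both libraries, and Oxtr, the oxytocin receptor of myoepithelium, lay under 0.1 in both (0.0172 and 0 FPKM).

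Genes of hormone-sensing luminal cells were low. Pgr, the progesterone receptor, lay under 0.1 FPKM in both libraries (0 and 0.00993 FPKM), as did Prlr, the prolactin receptor (0.00884 and 0 FPKM), and the progenitor marker Prom1 (0.0724 and 0.0942 FPKM). The trefoil peptide Tff3 was listed at 0 in both. Esr1, the estrogen receptor, was at 1.54 and 1.37 FPKM. Gata3, a luminal transcription factor also used by lymphocytes, was at 9.96 and 11 FPKM, Areg, a growth factor, at 5.98 and 8.83 FPKM, and the surface antigen Ly6a at 18 and 18.9 FPKM. Of 9 milk genes, 5 were listed at 0 in both libraries, among them the caseins Csn1s1, Csn1s2a and Csn2 and the whey gene Wap. Csn3, kappa-casein, was nevertheless at 4.74 and 6.31 FPKM, and Xdh, which is also a general purine enzyme, at 30.9 and 34.3 FPKM.

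Mesenchymal genes were abundant. Vim, the intermediate filament of mesenchymal cells, was at 460.2 and 526 FPKM, and at 1469 and 1531 FPKM with unnamed transcripts. S100a4 was at 370.4 and 535 FPKM and fibronectin Fn1 at 365 and 423 FPKM. The transcription factors Twist1 (28.7 and 26.1 FPKM), Snai1 (14.4 and 14.5 FPKM) and Zeb2 (14.3 and 11.9 FPKM), which repress epithelial genes, were expressed, and Zeb1, named after its value was seen, was at 1.06 and 1.12 FPKM. Cdh2, N-cadherin, was at 0.0926 and 0.143 FPKM, and Cdh1, E-cadherin, at 4.14 and 2.33 FPKM, both named for comparison after their values were seen. Of 12 genes in this list 10 reached 1 FPKM in both libraries, with a median of 13.8 FPKM. Host fibroblasts, vessels and macrophages also make Vim, Fn1 and S100a4, so these levels do not belong to the carcinoma cells alone.

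Cell cycle genes were expressed throughout: all 15 mitotic and all 14 replication genes listed reached 1 FPKM in both libraries, with medians of 22.6 and 21.1 FPKM. Ube2c, which drives the exit from mitosis, was at 75.9 and 83.7 FPKM, and Cdc20, of the same step, at 35.1 and 40.8 FPKM. Ccna2, cyclin A2, was at 42.1 and 41.8 FPKM, and the topoisomerase Top2a at 26.7 and 28.3 FPKM, or 98.8 and 103 FPKM with unnamed transcripts. Pcna, the sliding clamp of DNA polymerase, was at 101 and 106 FPKM and the helicase subunit Mcm6 at 59.9 and 56.7 FPKM. These libraries differed by little: no mitotic gene lay 2-fold apart, and in the replication list 1 gene in each direction did, none once unnamed transcripts were added.

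Among oncogenes and tumour suppressors 17 of 20 reached 1 FPKM in both libraries. Myc was the highest at 62.6 and 68.1 FPKM, followed by Stk11 at 26.8 and 25 FPKM and Trp53 at 25.5 and 25.3 FPKM. The level of Trp53 RNA says nothing of whether the gene is intact. The RAS gene Hras was at 20.7 and 17.8 FPKM and its relative Nras at 23.7 and 4.42 FPKM, a gap that closed to 27.7 and 25.8 FPKM with unnamed transcripts. Named after their values were seen, the receptors Egfr and Erbb2 were at 1.08 and 0.772 FPKM and at 6.96 and 6.64 FPKM, and the cell cycle inhibitor Cdkn2a at 0.523 and 0.25 FPKM.

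Factors that call in and sustain myeloid cells were read at high levels, and 13 of 15 reached 1 FPKM in both libraries. Ccl2, which attracts monocytes, was at 94.5 and 182 FPKM and Csf1, the macrophage growth factor, at 67.4 and 69.9 FPKM. Cxcl1, a neutrophil chemokine, was at 46.2 and 63.5 FPKM, and Cxcl5, another, at 0.983 and 0.816 FPKM by symbol but at 38.9 and 31.2 FPKM with unnamed transcripts. Csf3, which encodes G-CSF, the growth factor of neutrophils, was at 3.69 and 35.1 FPKM, and this gap narrowed to 16.5 and 35.4 FPKM with unnamed transcripts. Il1b was at 40.0 and 34.7 FPKM and the prostaglandin enzyme Ptgs2 at 28.8 and 42 FPKM, while Csf2 was at 0.253 and 0 FPKM.

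Proteases and inhibitors of matrix turnover had a median of 73.7 FPKM, the highest of the 52 lists by symbol, and all 17 members reached 1 FPKM in both libraries. The lysosomal cathepsins Ctsl (316 and 188 FPKM, or 429 and 437 with unnamed transcripts), Ctsb (209 and 239.8 FPKM), Ctss (185 and 254 FPKM) and Ctsd (198 and 206 FPKM) led it. Stromelysin-1, Mmp3, was at 70.4 and 127 FPKM and gelatinase B, Mmp9, at 91.3 and 75.2 FPKM. The urokinase Plau was at 88.2 and 95.2 FPKM, and its receptor Plaur went from 4.32 and 16 FPKM by symbol to 63.4 and 62.5 FPKM with unnamed transcripts.

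Glycolysis and hypoxia genes had a median of 56.7 FPKM, or 95.1 with unnamed transcripts, and 18 of 19 were at 10 FPKM or more in both libraries. The enzymes Pkm, Aldoa, Ldha, Gapdh, Eno1 and Pgk1 lay between 376 and 916 FPKM. Car9, carbonic anhydrase of hypoxic cells, was at 33.5 and 34.4 FPKM, and Egln3, a HIF target that hydroxylates HIF, at 73.9 and 95.8 FPKM. Hif1a was at 24 and 11.7 FPKM, and at 47.1 and 42.2 FPKM with unnamed transcripts.

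The drug targets of the series were expressed in the untreated tumour. Wee1 was at 9.14 and 10.4 FPKM, its relative Pkmyt1 at 8.4 and 8.86 FPKM, and their substrate Cdk1 at 18.3 and 20.0 FPKM with its partner Ccnb1 at 20.6 and 22.3 FPKM. Of 15 genes around this switch 14 reached 1 FPKM in both libraries. The exception was the checkpoint kinase Atm at 0.0629 and 0.16 FPKM, which became 4.23 and 3.59 FPKM with unnamed transcripts. Ido1, the tryptophan-degrading enzyme, was low at 2.85 and 2.63 FPKM, and its relatives were lower, Ido2 at 0.23 and 0.929 FPKM (1.97 and 1.07 with unnamed transcripts) and Tdo2 at 0.134 and 0.24 FPKM. The kynurenine-sensing receptor Ahr was at 5.85 and 7.6 FPKM, the amino acid carrier Slc7a5 at 28.5 and 29.8 FPKM and the Ahr target Cyp1b1 at 14.8 and 17.2 FPKM. Il4i1, a tryptophan oxidase, lay under 0.1 FPKM in both (0.045 and 0.0685 FPKM).

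For ferroptosis, a death by iron-driven lipid oxidation, the untreated tumour had 17 of 18 defence genes and 12 of 16 driver genes at 1 FPKM or more in both libraries. Gpx4, the enzyme that reduces lipid hydroperoxides, was at 219.6 and 262 FPKM, thioredoxin Txn1 at 197 and 225 FPKM and haem oxygenase Hmox1 at 152 and 135 FPKM. The cystine carrier Slc7a11 was the exception among the defence genes at 0.0837 and 0.141 FPKM by symbol, but at 2.82 and 2.54 FPKM with unnamed transcripts. Its partner chain Slc3a2 was at 59.3 and 69.9 FPKM. Of the drivers, Acsl4, which loads polyunsaturated fatty acids into phospholipids, was at 17.3 and 17.9 FPKM, the transferrin receptor Tfrc at 34.5 and 44.1 FPKM, and the polyamine enzyme Sat1 at 69.3 and 74.3 FPKM. The lipoxygenases, named after their values were seen, stayed under 1 FPKM, Alox12 at 0.187 and 0.0589 FPKM and Alox15 at 0.179 and 0.362 FPKM.

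**Figure D2:**
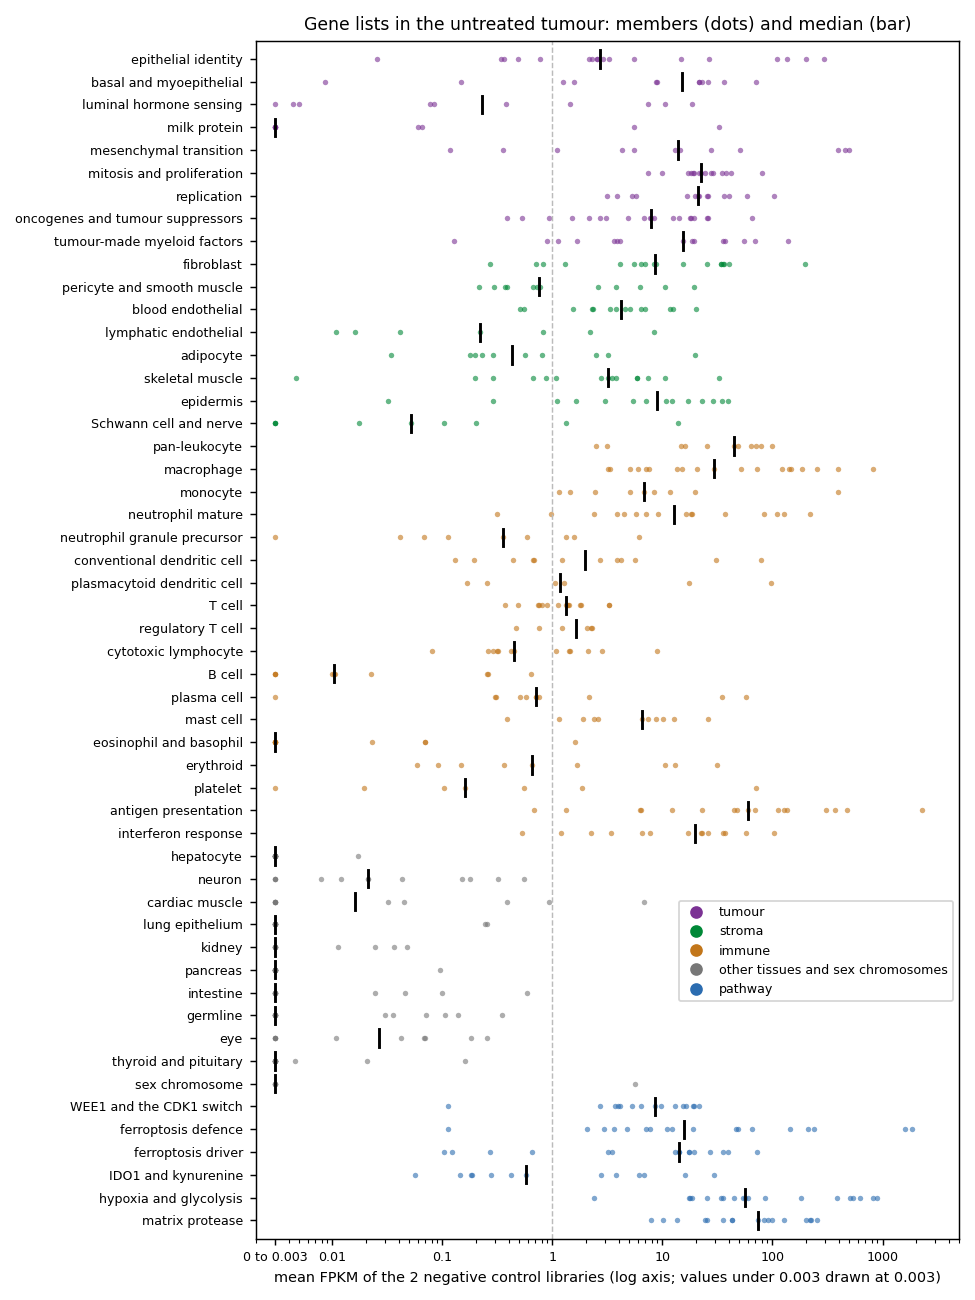
Mean FPKM over the 2 negative control libraries (horizontal log axis) of every member (dots) of the 52 gene lists (vertical axis), with each list's median as a black bar and 1 FPKM dashed. Leukocyte, macrophage, antigen presentation, glycolysis and protease lists have medians of 29.6 to 73.7 FPKM, and lists of other organs have medians near or at 0.

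Fibroblast genes were expressed at moderate levels, with 14 of 18 at 1 FPKM or more in both libraries. Sparc, a matrix protein also made by vessels and carcinoma cells, was the highest at 201 and 191 FPKM. The fibrillar collagen chain Col1a1 was at 38.3 and 34.4 FPKM and Col3a1 at 40.8 and 27.9 FPKM. Decorin, Dcn, was at 44 and 36.7 FPKM. No gene of the list was 2-fold apart. Pericyte and smooth muscle genes were low, with a median of 0.750 FPKM. Acta2, smooth muscle actin and a mark of activated fibroblasts, was at 7.13 and 10.6 FPKM. Mcam, shared with endothelium, was the highest of the pericyte list at 18.6 and 20.5 FPKM.

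Blood vessel genes were present in both libraries, with 12 of 14 at 1 FPKM or more. Plvap, of fenestrated capillaries, was at 24.5 and 15.7 FPKM, VE-cadherin Cdh5 at 14.5 and 9.13 FPKM and Pecam1 at 13.4 and 11.3 FPKM. All lay higher in replicate 1, as did 12 of the 14, but none by 2-fold. Lymphatic genes were scarce: Prox1, the defining transcription factor, lay at 0.0221 and 0.00967 FPKM, and Lyve1, shared with macrophages, at 2.18 and 2.2 FPKM. Fat cell genes were low as well, with Adipoq, which marks adipocytes, at 0.394 and 0.185 FPKM. Fabp4, shared with endothelium and macrophages, was at 24.6 and 15 FPKM. In the nerve list Sox10, of Schwann cells, was at 0.103 and 0 FPKM, and Pmp2, Gfra3 and Foxd3 were listed at 0 in both, while Mbp was at 15 and 12.8 FPKM.

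Leukocyte RNA was plentiful. Of the labelled cell type, cancer cell, these libraries are thus a mixture: all 11 pan-leukocyte genes reached 1 FPKM in both, with a median of 45.0 FPKM. The signalling adaptors Tyrobp (99.9 and 97.4 FPKM) and Fcer1g (70.2 and 72.7 FPKM), which serve myeloid and natural killer cells, and Laptm5 (77 and 79.1 FPKM) led the list. Ptprc, which encodes CD45, was at 16.4 and 15.4 FPKM, and is named as the defining marker. Lcp1, the leukocyte plastin, was at 2.09 and 2.92 FPKM by symbol but at 101 and 86.4 FPKM with unnamed transcripts.

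Macrophage genes had the highest sum among the lists of single immune cell types, with all 19 at 1 FPKM or more in both libraries and a summed level of 1672 and 2924 FPKM. Lyz2, the lysozyme of myeloid cells, was at 311 and 478 FPKM. The complement chains of tissue macrophages were led by C1qa at 206 and 299 FPKM, with C1qc at 115 and 169 FPKM, and Apoe was at 176 and 193 FPKM. Spp1, at 458 and 1178 FPKM, and Arg1, the arginine-degrading enzyme, at 78.4 and 218 FPKM, were more than 2-fold higher in replicate 2. With unnamed transcripts Arg1 kept its values and Spp1 came to 645 and 1184 FPKM. Nos2, the enzyme that uses arginine to make nitric oxide, went the other way at 26.1 and 15.2 FPKM, and is named after its values were seen. Over the list 13 of 19 genes were higher in replicate 2, or 12 after rescaling to nuclear genes, against 6324 and 5009 of 11545 genes. Monocyte genes were lower: apart from Fn1, which many cells make, F13a1 was at 15.7 and 23.9 FPKM, Plac8 at 15.1 and 8.48 FPKM and Ly6c2 at 8.82 and 4.81 FPKM.

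Neutrophil genes of the mature cell were also high. The calprotectin chains S100a9 and S100a8 were at 255 and 188 FPKM and at 145 and 107 FPKM, and 14 of 16 genes were higher in replicate 1. Mmp9 and Lcn2, which tumour or stromal cells also make, were given above, and the resistin-like gene Retnlg was at 19.2 and 17.7 FPKM. Stfa3, a stefin of neutrophils, was at 32.9 and 0 FPKM and Stfa2l1 at 22 and 14.4 FPKM. Near Stfa3 on chromosome 16, Cstdc5 was at 73.8 and 4.32 FPKM and Cstdc6 at 14 and 1.86 FPKM. How reads were split between near-identical stefin copies is uncertain, and its part in these differences was not tested. Csf3r, the G-CSF receptor, was at 0.241 and 1.71 FPKM by symbol and 10.5 and 7.11 FPKM with unnamed transcripts. Granule genes of immature neutrophils were nearly silent, with a median of 0.352 FPKM: Ngp was at 7.63 and 4.73 FPKM, Elane, neutrophil elastase, at 0.0817 and 0 FPKM, and Ms4a3, of granulocyte progenitors, was listed at 0 in both.

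Genes of dendritic cells were present at low levels. Batf3 and Ccr7, of cross-presenting and migrating cells, were at 5.42 and 5.92 FPKM and at 3.86 and 3.87 FPKM, and Ccl22 at 3.92 and 4.5 FPKM. Fscn1, which tumour cells also make, was at 79.3 and 77.2 FPKM, and Irf8, which macrophages also make, at 32.7 and 29 FPKM. The markers Xcr1 and Clec9a, named as defining although low, were at 0.189 and 0.0702 FPKM and at 0.228 and 0.16 FPKM. Of the plasmacytoid markers Siglech was at 0.371 and 0.131 FPKM, whereas Bst2, which interferon induces in many cells, was at 91.4 and 101 FPKM.

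Lymphocyte genes were sparse beside the myeloid ones. The T cell list had a median of 1.33 FPKM and no member at 10 FPKM in either library. Cd3g was at 4.09 and 2.46 FPKM, the kinase Lck at 3.45 and 3.11 FPKM, and Cd3e at 1.88 and 0.875 FPKM. Cd4 was at 1.47 and 1.23 FPKM and Cd8a at 1.78 and 0.46 FPKM, the second named after its values were seen. Foxp3, of regulatory T cells, was at 0.833 and 0.676 FPKM and Ctla4 at 2.3 and 2.29 FPKM. Granzyme B, Gzmb, led the cytotoxic list at 11.9 and 6.08 FPKM, with Nkg7 at 3.22 and 2.4 FPKM. Perforin, Prf1, was at 2.5 and 0.311 FPKM by symbol, a gap that narrowed to 2.52 and 1.27 FPKM with unnamed transcripts, and Klrb1c lay under 0.1 FPKM in both (0.0874 and 0.0743 FPKM). In the T cell list 12 of 15 genes and in the cytotoxic list 12 of 13 were higher in replicate 1, against 5221 of 11545 genes of mean FPKM at least 1.

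B cells left almost no signal. Of 10 genes 7 lay under 0.1 FPKM in both libraries, among them Ms4a1, which encodes CD20 (listed at 0 in both), Pax5 (0.0242 and 0.0207 FPKM) and Blk (listed at 0 in both). Plasma cell genes were low by symbol, but with unnamed transcripts the immunoglobulin constant gene Igkc came to 8.19 and 3.3 FPKM from 0.649 and 0.50 FPKM and Ighm to 5.18 and 5.18 FPKM from 0.716 and 0.701 FPKM. Jchain, which joins secreted immunoglobulin, was at 2.26 and 2.05 FPKM, while Xbp1 (73.5 and 42.4 FPKM, or 80.0 and 81.6 with unnamed transcripts) and Sdc1 (34.1 and 34.8 FPKM) are also made by secretory and epithelial cells.

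Mast cells were clearly marked. The tryptases Tpsab1 and Tpsb2 were at 26.9 and 25.4 FPKM and at 13.9 and 11.3 FPKM. Hdc, the histamine-forming enzyme, was at 12.2 and 8.1 FPKM, the protease Mcpt4 at 11.8 and 5.61 FPKM, chymase Cma1 at 9.1 and 5.59 FPKM and carboxypeptidase Cpa3 at 7.5 and 5.4 FPKM. Of 11 genes 10 reached 1 FPKM in both libraries, and all 11 were higher in replicate 1, none by 2-fold on the log2(FPKM + 1) scale. Eosinophil genes were not seen: 7 of 10 in their list lay under 0.1 FPKM in both libraries, and Siglecf, Epx, Prg2 and Ear1 were listed at 0. The basophil protease Mcpt8 was at 1.71 and 1.49 FPKM, or 2.24 and 2.39 FPKM with unnamed transcripts.

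Blood cells without nuclei left a small trace. The beta globin Hbb-bs was at 27.1 and 35.4 FPKM and the alpha globin Hba-a1 at 9.4 and 16.6 FPKM, with Hba-a2 at 6.85 and 14.4 FPKM, and reads of these near-identical copies may be split unevenly. Platelet genes were close to 0 apart from Pf4 at 70.1 and 70.9 FPKM, which macrophages can also make, while Gp9, of the platelet surface, was listed at 0 in both.

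Antigen presentation genes were high in both libraries, with a median of 59.3 FPKM over 17 genes. Beside B2m, the class I heavy chains H2-K1 and H2-D1 were at 379 and 359.9 FPKM and at 539 and 69.7 FPKM. With unnamed transcripts H2-K1 came to 817 and 1118 FPKM, and the gap in H2-D1 closed at 741 and 845 FPKM. Of the class II genes, the invariant chain Cd74 was at 492 and 456 FPKM and H2-Aa at 139.7 and 129 FPKM, and the proteasome subunit Psmb8, which shapes peptides for class I, at 129.6 and 123 FPKM. The checkpoint ligand Cd274, named after its values were seen, was at 13.6 and 10.9 FPKM. Interferon-induced genes summed to 420.0 and 265.0 FPKM. The GTPase Gbp2 was at 135 and 69.9 FPKM and Igtp at 75.7 and 38.4 FPKM, while Isg15, a ubiquitin-like protein, was at 37.9 and 36.8 FPKM. Thus 10 of 14 genes in this list were higher in replicate 1. Cxcl9, a T cell chemokine, was at 1.05 and 1.33 FPKM by symbol and 53.3 and 33.3 FPKM with unnamed transcripts.

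Genes of other organs were largely absent. Over 11 lists for liver, brain, heart, lung, kidney, pancreas, gut, germ cells, eye, thyroid and pituitary, and the sex chromosomes, 95 of 116 genes lay under 0.1 FPKM in both libraries, 74 were listed at 0 in both and 2 reached 1 FPKM in both. All 12 hepatocyte genes, among them Alb, Apoa1, Apoa2 and Apob, and all 10 kidney genes, among them Umod, Nphs1 and Slc12a1, lay under 0.1 FPKM. The same held for 11 of 12 pancreas genes, including Ins1, Ins2, Gcg and Sst, with Prss2, a trypsinogen, at 0 and 0.191 FPKM. Lung surfactant genes, Sftpa1, Sftpb, Sftpc and Sftpd, were listed at 0 in both, which here describes the tumour under the skin and not any spread to lung.

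Some lists held exceptions. Nppb, a natriuretic peptide of the heart, was at 5.02 and 8.56 FPKM, with the heart genes Myh6, Myl7 and Myl2 listed at 0 in both. Slc17a7, a glutamate carrier of neurons, was at 0.574 and 0.521 FPKM, with Syt1 and Gap43 at 0 in both. Olfm4, of gut crypts and neutrophils, was at 0.686 and 0.484 FPKM and Sycp1, of meiosis, at 0.315 and 0.381 FPKM. Xist, the RNA of the inactive X chromosome, was at 6.05 and 5.15 FPKM, and the Y genes Ddx3y, Kdm5d, Uty and Eif2s3y were listed at 0 in both. The step taken as 1 read is the commonest product of FPKM and length among single-exon transcripts alone at their locus. At a transcript length of 2000 bases it is worth 0.0125 and 0.0156 FPKM, so values under 0.1 rest on few reads. Some printed values lie below this step.

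The 2 untreated libraries were compared gene by gene, with no test, since each is a single library. Among 11545 genes of mean FPKM at least 1, 336 were at least 2-fold higher in replicate 1 (2.91% of those compared) and 211 in replicate 2 (1.83%), on the log2(FPKM + 1) scale. Together that is 4.74%, against 4.42% in the Lipo-MK1775+NLG pair, 5.96% in Free-MK1775, 8.09% in Lipo-MK1775 and 44.7% in Free-MK1775+NLG919. Of these, both Lipo-MK1775 libraries and replicate 2 of Free-MK1775+NLG919 had the high mitochondrial share. The correlation of the 2 control libraries across genes was r = 0.955 on the log2(FPKM + 1) scale, and genes are not independent replicates. Each control library had a higher r with Free-MK1775 replicate 2, at 0.963 and 0.965, than with the other control library. This was not particular to that library. Control replicate 1 also had a higher r with Lipo-MK1775+NLG replicate 2 (0.956), and control replicate 2 with Lipo-MK1775+NLG replicate 1 (0.963). Depth, RNA source and scaling are shared in such values. With unnamed transcripts r was 0.971 between the controls, and 0.979 and 0.981 with Free-MK1775 replicate 2. Control replicate 2 was then at 0.980 with Lipo-MK1775+NLG replicate 1 and 0.972 with Free-MK1775 replicate 1. Control replicate 1 was at 0.971 with Lipo-MK1775+NLG replicate 2, no higher than with the other control.

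The differences towards replicate 1 were led by genes of stratified epithelium. Of the 12 largest, Krt14 (chromosome 11, 100093988 to 100098374, GRCm39), Krt16, Krt5 (chromosome 15, 101615505 to 101621333), Krt6b, Krt1, Krt17 and Krt6a are keratins of stratified epithelium, and Krtdap (chromosome 7, 30487321 to 30490522), Calm4 and Sprr1a belong to differentiating or cornifying keratinocytes. Krtdap was at 78.4 and 0 FPKM, Krt16 at 72.4 and 0 FPKM and Krt1 at 57 and 0 FPKM. Perp, a protein of desmosomes, was at 35 and 0 FPKM, and the neutrophil gene Stfa3 completed the 12. All 14 genes of the epidermal list were higher in replicate 1, and all 12 with a mean of at least 1 FPKM were past 2-fold. Their summed level was 364 and 2.77 FPKM, and 10 of the 14 were listed at 0 in replicate 2.

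The same genes were read in some treated libraries. The epidermal sum was 119 FPKM in Free-MK1775 replicate 2 and 59.8 FPKM in Lipo-MK1775+NLG replicate 2, and 0.845 to 3.87 FPKM in the remaining 6 treated libraries. Krt14 was at 19.1 and 194 FPKM in these 2 libraries and at most 0.560 FPKM in the other 6. In 3 of the 5 groups, then, 1 library of the pair held epidermal RNA far above its partner. In each of these 3 pairs Epcam and Esrp1 were higher in the library with epidermal RNA. Krt8 and Krt18 were lower there in the control and Lipo-MK1775+NLG pairs. In Free-MK1775 they were higher there: Krt8 was at 188 FPKM in replicate 1 and 241 in replicate 2, and Krt18 at 304 and 347.

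Skeletal muscle differed in the same direction and by less. Acta1, skeletal actin, was at 52.2 and 12.5 FPKM, Tnnt3, fast troponin T, at 11.2 and 3.6 FPKM (15.3 and 5.69 with unnamed transcripts), and Myh4, the fast myosin, at 5.63 and 1.3 FPKM. Of 10 muscle genes with a mean of at least 1 FPKM, 7 were past 2-fold, all higher in replicate 1, and the summed level was 119.8 and 36.7 FPKM. Across the treated libraries that sum ran from 6.27 to 261 FPKM, so both controls lay inside the treated range. In the fat list 2 of 3 genes with a mean of at least 1 FPKM were past 2-fold and higher in replicate 1, and 1 with unnamed transcripts. The epidermal and muscle lists held 19 of the 547 genes past 2-fold, which leaves 528. That count does not measure how much of the difference is skin, since Krt14, Krt5, Krt16, Perp and Sprr1a are in neither list.

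**Figure D3:**
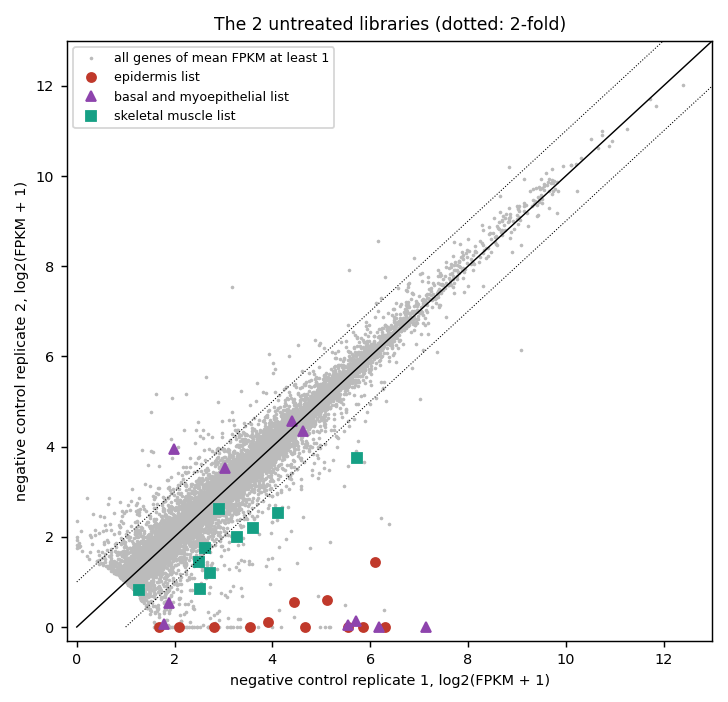
log2(FPKM + 1) in negative control replicate 1 (horizontal axis) and replicate 2 (vertical axis) for the 11545 genes of mean FPKM at least 1, with the diagonal drawn solid and 2-fold lines dotted. Epidermal genes (circles) lie at or near 0 in replicate 2, muscle genes (squares) lie below the diagonal, and basal genes (triangles) fall into a group near 0 and a group near the diagonal.

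**Figure D4:**
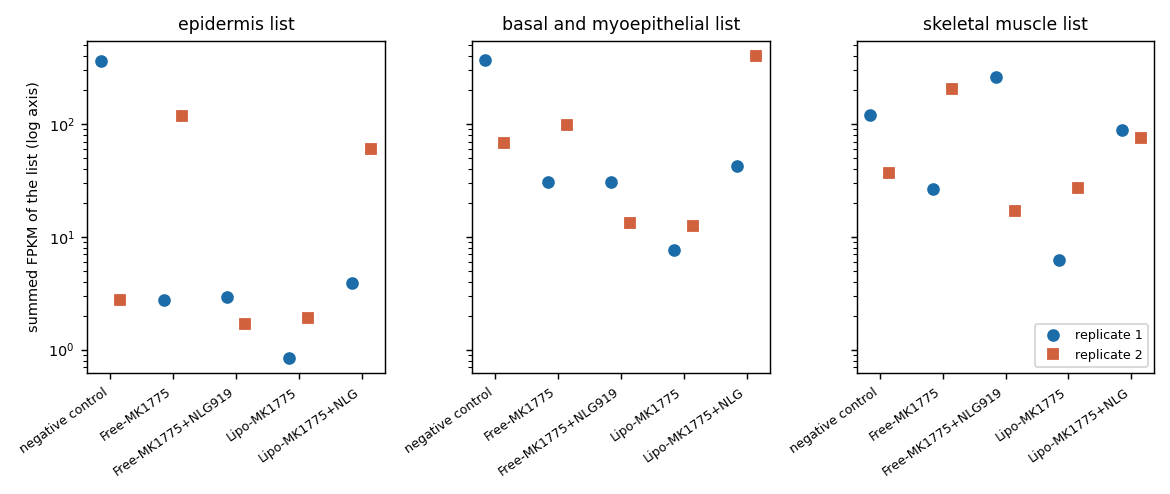
Summed FPKM (vertical log axis) of the epidermis, basal and myoepithelial, and skeletal muscle lists in each library, by group (horizontal axis), replicate 1 as circles and replicate 2 as squares. The epidermal sum is 364 FPKM in negative control replicate 1, 119 in Free-MK1775 replicate 2 and 59.8 in Lipo-MK1775+NLG replicate 2, and under 4 in the other 7.

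The differences towards replicate 2 were of another kind. The largest was Bc1, a short noncoding RNA (chromosome 7, 144468207 to 144468374, GRCm39), at 8.03 and 184 FPKM. Rpl37, a ribosomal protein gene that shares its locus with another symbol, was at 70.3 and 374 FPKM. The other 10 were H2-DMa, Ctnnd1, Csf3, Adprh, Slpi, Cep170b, Tns4, Ppard, Plin2 and Nop53. H2-DMa, which loads class II peptides, went from 2.06 and 34.9 FPKM by symbol to 18.3 and 35.1 FPKM with unnamed transcripts, and Plin2, of lipid droplets, from 14.2 and 65.9 to 81.5 and 85.2 FPKM. With unnamed transcripts Bc1 and Rpl37 did not change, and of these other 10 only Csf3 still lay 2-fold apart. Named after this step was seen, the cytokine Tslp (19.3 and 63.8 FPKM), the lectin Mgl2 (11 and 29.8 FPKM with unnamed transcripts) and the heat shock gene Hspa1b (118 and 288 FPKM) also remained higher in replicate 2.

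Counting the unnamed transcripts changed the 2 directions unequally. Of the 336 genes higher in replicate 1, 163 stayed past 2-fold and of the 211 higher in replicate 2, 50 stayed. Over all 12171 genes of mean FPKM at least 1 with unnamed transcripts, 258 were past 2-fold (2.12%), 191 higher in replicate 1 and 67 in replicate 2. All 12 epidermal and all 7 muscle genes past 2-fold stayed past it, as the plot of genes past 2-fold shows.

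**Figure D5:**
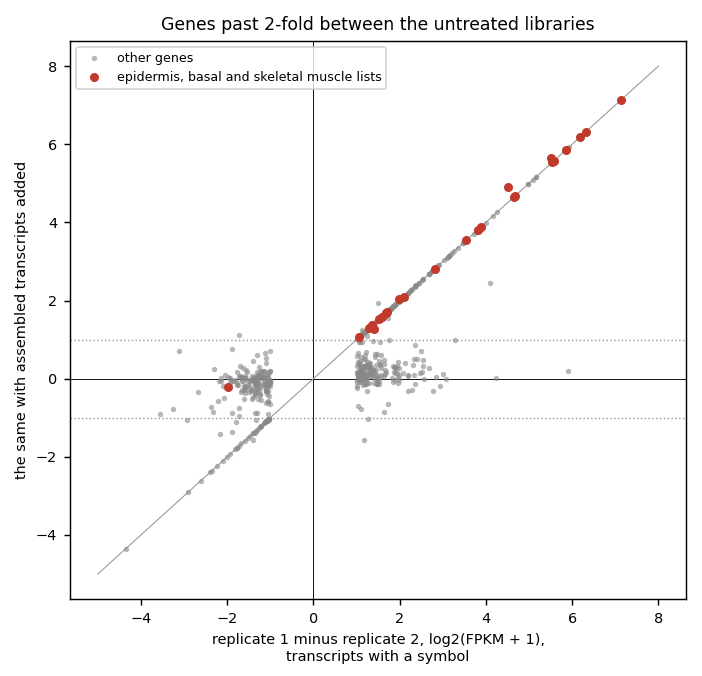
Replicate 1 minus replicate 2 in log2(FPKM + 1) for the 547 genes past 2-fold between the untreated libraries, from transcripts with a symbol (horizontal axis) and with unnamed transcripts added (vertical axis); the dotted lines mark 2-fold and the grey line equal values. Members of the epidermis, basal and muscle lists (red) lie on or near the grey line, except Itgb4 near 0, and many other genes (grey) lie near 0 on the vertical axis.

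Against the 4 treated groups, the untreated tumour was compared in limma with 1 mean per group over all 10 libraries, and the contrast was the control mean minus the mean of the 4 treated means. Of 12345 genes tested, 2 were called at an adjusted p under 0.05 (0.0162%), both higher in the control, and 1655 had an unadjusted p under 0.05. The median difference over all genes was 0.33 log2 units, and 0.05 under median-of-ratios scaling, so single differences are to be read against 0.33. The 3 treated libraries of high mitochondrial share have lower nuclear levels on the FPKM scale. Without them the median difference over all genes was -0.04 log2 units. That fit holds no Lipo-MK1775 library and a lone library of Free-MK1775+NLG919.

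Prl2c3, a proliferin of the prolactin family (chromosome 13, 12805705 to 12815188, GRCm39), was at 34.1 and 32.2 FPKM in the untreated tumour. In the 8 treated libraries it was lowest 0, median 3.48 and highest 13.8 FPKM, and no treated library reached a control. The difference was 2.99 ± 0.32 log2 units (SE) with an adjusted p of 0.00661 in limma. It was no longer called without the 3 libraries of high mitochondrial share (2.83, adjusted p 0.0521), without negative control replicate 1 (2.95, adjusted p 0.254) or with a pseudocount of 0.1 (3.70, adjusted p 0.416). Reads of Prl2c3 and its near-identical family members cannot be told apart with certainty. The other gene called was the pseudogene Rps18-ps6, outside the rule for named genes, at 537 and 518 FPKM against lowest 0, median 151 and highest 592 FPKM in the treated libraries. Its difference was 4.63 log2 units with an adjusted p of 5.83e-05 in limma, although the treated range includes the controls, and its parent Rps18 was at 167 and 218 FPKM.

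No other gene passed the test, and those of smallest p are given as values. Calr4, a relative of calreticulin, was at 3.56 and 3.85 FPKM against lowest 0, median 0.492 and highest 1.94 FPKM in the treated libraries. Golga1, a golgin, was at 4.83 and 4.73 FPKM against lowest 0.000851, median 1.39 and highest 3.15 FPKM. Trim25, a ubiquitin ligase of antiviral signalling, was at 2.19 and 3.37 FPKM against lowest 0.0589, median 0.176 and highest 0.477 FPKM by symbol, but at 20.2 and 16.2 FPKM against 5.05 to 20.9 FPKM with unnamed transcripts. On the lower side were Manbal (0.182 and 0.558 FPKM), Msto1 (2.73 and 5.26 FPKM), Vwa5a (2.08 and 6.87 FPKM) and Rpl37, with differences of -1.95, -1.43, -1.92 and -2.02 log2 units. With unnamed transcripts Manbal and Msto1 came to 14.2 and 16 FPKM and 17.3 and 21 FPKM, inside the treated ranges of 4.36 to 18.5 and 11.4 to 21.5 FPKM. Vwa5a came to 17.7 and 23.2 FPKM, inside its treated range of 10.6 to 46.6 FPKM, and its difference to -0.26 log2 units (limma adjusted p 0.587).

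With unnamed transcripts 17 genes were called, 16 of them higher in the control, and both genes above were among them. Those named next were chosen after their values were seen. Il24, a cytokine of the IL-10 family, was at 6.79 and 6.39 FPKM in untreated tumour and at most 5.13 FPKM in the treated libraries (difference 1.96, limma adjusted p 0.0151). Prl2c2, a second proliferin, was at 3.03 and 3.66 FPKM and at most 1.75 FPKM (difference 1.40, limma adjusted p 0.0424). Wt1, a transcription factor, was at 2.88 and 2.63 FPKM and at most 1.18 FPKM (difference 1.51, limma adjusted p 0.0286). Prkaa1, a catalytic subunit of AMP-activated kinase, was at 320 and 79.6 FPKM and at most 35.5 FPKM (difference 3.45, limma adjusted p 0.00513), whereas by symbol alone it was at 12.6 and 12.9 FPKM with an adjusted p of 0.787. Nearly all of that level thus lies in transcripts without a symbol, and the 2 controls stand far apart. Such transcripts were assigned by overlap alone, so the reads may belong to another gene. Rpl37, which shares its locus with another symbol, ran the other way. It was at 70.3 and 374 FPKM in the controls and at 464 to 1347 FPKM in the treated libraries. Whether reads were split between Rpl37 and the transcripts given to Prkaa1 was not tested.

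By symbol, no member of any of the 52 lists was called. Both controls lay above all 8 treated libraries in 966 of 12345 genes (7.83%) and below all 8 in 67 (0.543%). In the mast cell list 7 of 10 genes tested lay above, with a median difference of 1.20 log2 units against 0.33 over all genes. The summed mast cell level was 90.7 and 68.9 FPKM in the controls and 6.33 to 70.0 FPKM in the treated libraries, so the sums overlapped. In the replication list 5 of 14 and around WEE1 4 of 14 lay above, with medians of 0.65 and 0.69. These medians, and the 0.33, include the 3 libraries of high mitochondrial share. Against the 5 treated libraries of low mitochondrial share alone, 1005 genes (8.14%) lay above and 1165 (9.44%) below. There all 4 granule genes of immature neutrophils tested lay below, the list summing to 11.6 and 8.81 FPKM in the controls and 14.4 to 38.9 FPKM in those 5. Macrophage genes lay below in 4 of 19. None of these genes passed the adjusted test, and the lists are described by counts only.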

How the data were processed

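RNA of 10 subcutaneous 4T1 tumour libraries was read, 2 in each of 5 groups, and the 2 negative control libraries are described here. The authors deposited FPKM per transcript; RNeasy extraction and a NEBNext Ultra library kit are named per the labels' protocols, and FastQC, Trim Galore, HISAT2, StringTie and build GRCm39 per the submitters' processing notes, with no versions. The strand setting is not stated, so antisense and overlapping partners cannot be told apart. Read counts were not used here, and depth is known only in relative terms. It comes from the commonest product of FPKM and length among single-exon transcripts alone at their locus, in each library.

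FPKM was summed over the transcripts of a gene symbol, giving 52324 genes from 161762 transcripts. Of 21051 transcripts with no symbol, 14868 could be added to the symbol of largest overlap at the same assembled locus and 6183 could not. The 4 treated groups were compared with the control in limma 3.58.1 (R 4.3.3) on log2(FPKM + 1), with a variance trend, for genes reaching an FPKM of 1 in 2 or more libraries, two-sided, with Benjamini-Hochberg adjustment and 5 residual degrees of freedom. The fit was tested on simulated data. Of 100 genes changed by 1 log2 unit 10% were called, and of 100 changed by 2 units 75%. The changed genes were drawn only from those of higher mean level, so these rates do not cover genes of low FPKM. All groups were simulated around a common mean, without the lower nuclear levels of the 3 libraries of high mitochondrial share. A gene that is not called may therefore still differ. A fold change on this scale understates the change of low genes.

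The members and the 52 gene lists (644 entries, 1 symbol not matched) were chosen with earlier results of these data known. Named genes were the 25 most abundant nuclear protein genes that share no locus, up to 6 leading members of a list and members under 0.1 FPKM in both libraries (up to 4 of these where there were 6 or more), the 12 largest differences in each direction between the libraries at a mean FPKM of at least 5, and, against treatment, 4 genes of smallest p in each direction; predicted genes and pseudogenes were left out, and some genes that the rule would name are not reported here. Outside this rule, and chosen after their values were seen, are Acta2, Alox12, Alox15, Atm, Car9, Cd274, Cd4, Cd8a, Cdh1, Cdh2, Cdkn2a, Clec9a, Csf2, Csf3r, Cstdc5, Cstdc6, Cxcl5, Cxcl9, Eef1a1, Egfr, Egln3, Epcam, Erbb2, Esrp1, Hif1a, Hspa1b, Ido2, Igkc, Il24, Itgb4, Lcp1, Mgl2, Myh4, Nos2, Nras, Pkmyt1, Plau, Plaur, Prkaa1, Prl2c2, Ptprc, Rn18s, Rps18, Rps18-ps6, Slc7a11, Stfa2l1, Tdo2, Tpt1, Tslp, Wee1, Wt1, Xcr1, Zeb1 and Zeb2. Alternatives were another pseudocount, other filters, median-of-ratios scaling, unnamed transcripts, a replicate block and each library left out. Added after the data had been seen were rescaling to nuclear genes, a fit leaving out the 3 libraries of high mitochondrial share, and 2 restricted gene sets. Promoters came from RefSeq (GRCm38.p6) by symbol.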

Additional observations from a re-analysis of the deposited data

How the results depend on the processing

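The count of genes called against the treated groups was 2, both higher in the control, and also 2 higher with median-of-ratios scaling and with a replicate block. A pseudocount of 0.1 gave 2 as well, but 1 higher and 1 lower, and Prl2c3 was not among them. It was 3 after rescaling to nuclear genes, 33 with no filter, 17 with unnamed transcripts and 1 without the 3 libraries of high mitochondrial share. Leaving out 1 library at a time gave 1 to 4491 calls: 1 without negative control replicate 1, 19 without negative control replicate 2, 4 without Lipo-MK1775+NLG replicate 2 and 4491 without Free-MK1775+NLG919 replicate 1. Each such fit leaves a group with a lone library that is assumed to vary like the others, and the cause was not tested. Without negative control replicate 2 Rpl37 was called, at -3.21 and an adjusted p of 0.0152 in limma. With unnamed transcripts the differences of Manbal and Msto1 reversed, to 0.26 and 0.18 log2 units.

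Labels give the groups the same replicate numbers, but with 2 libraries each these share only a number: deviations from the group means correlated at -0.186, 0.003, 0.008 and -0.192 between the control and each treated group, and the replicate block called 2 genes. Genes past 2-fold between the controls numbered 547, and 846 with a pseudocount of 0.1, 244 at a mean FPKM of at least 5, 258 with unnamed transcripts and 190 among genes that have none. Leaving out a library was not possible there. Genes at 1 FPKM or more in both libraries numbered 10882, and 6895 at an FPKM of at least 5. In a single library those at 1 FPKM or more ran from 11323 to 11566. Of the 52 lists, 27 had a median of at least 1 FPKM, and 23 to 27 in a single library.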
